A study of Homo sapiens with 24 samples.

Results

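The 4 microRNA (miRNA) hairpins miR-675, miR-335, miR-483 and miR-296 lie in the imprinted loci of H19, MEST, IGF2 and GNAS. Their 5p and 3p arms were taken by name from the table of mature miRNAs, which gave hsa-miR-675-5p, hsa-miR-675-3p, hsa-miR-335-5p, hsa-miR-335-3p, hsa-miR-483-5p, hsa-miR-483-3p, hsa-miR-296-5p and hsa-miR-296-3p, 8 of 2656 entries. All 8 passed the filter on low counts along with the rest of the 905 miRNAs tested.

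Imprinted genes are expressed mainly from the chromosome inherited from 1 parent, and several of these loci control fetal and placental growth. H19 is a maternally expressed non-coding RNA whose exon holds miR-675, and it lies beside IGF2, a paternally expressed growth factor gene with miR-483 in an intron. MEST, paternally expressed in mesoderm and placenta, carries miR-335 in an intron, and miR-296 belongs to the GNAS locus, which encodes the stimulatory G-protein subunit. A precursor hairpin is cut into a duplex of a 5p and a 3p strand, of which 1 is usually loaded into Argonaute and the other degraded, so the arms of a hairpin share their transcription but not their survival.

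The mature sequences are shown because the arms of each hairpin target mRNAs through different seeds. They were taken from RefSeq (GRCh38.p14), where 6 of the 8 arms had an entry, and run 5′ to 3′ with the seed, bases 2 to 8, in capitals.
hsa-miR-675-5p: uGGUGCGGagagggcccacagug
hsa-miR-675-3p: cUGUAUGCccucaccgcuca
hsa-miR-335-5p: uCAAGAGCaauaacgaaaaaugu
hsa-miR-335-3p: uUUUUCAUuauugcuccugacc
hsa-miR-296-5p: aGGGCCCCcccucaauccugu
hsa-miR-296-3p: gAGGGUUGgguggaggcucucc

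No seed was shared between these 6 arms. The seed of miR-675-5p also occurred in miR-4466, which was among the miRNAs tested. G made up 47.8% of the bases of miR-675-5p and 15% of miR-675-3p, 17.4% of miR-335-5p and 9.09% of miR-335-3p, and 19% of miR-296-5p against 50.0% of miR-296-3p. MIR675 (chr11:1996759-1996831, minus strand) lies in an exon of H19 on the same strand. MIR335 (chr7:130496111-130496204, plus strand) lies in an intron of MEST on the same strand, opposite an exon of ENSG00000270823. MIR296 (chr20:58817615-58817694, minus strand) lies in an exon of ENSG00000268649 on the same strand.

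OV90, an established ovarian carcinoma cell line carrying doxycycline-inducible shRNAs, was profiled for miRNAs to ask how loss of the NF-κB subunits RELA and RELB alters miRNAs in adherent culture and in spheroid culture, which enriches tumor-initiating cells. The 6 groups were shNeg (the negative control shRNA, labelled wild type), shRELA and shRELB in each culture, with 4 libraries per group and 24 in all. Every group, shNeg included, received 1 µg/ml doxycycline for 72 h. Adherent cells grew in RPMI with tetracycline-free fetal calf serum, and spheroids grew in ultra-low attachment plates in DMEM-F12 with serum replacement, EGF and FGF, so attachment and medium cannot be told apart. All groups derive from 1 cell line, and no source states whether the 4 libraries came from separate cultures, so the p-values measure only the spread between these libraries. The knockdown itself is not measured by miRNA reads.

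Counts assigned to miRNAs ran from 3797175 to 8283549 in the adherent libraries, from 959141 to 1580252 in spheroid shNeg and from 1861232 to 3580931 in the other spheroid groups. Spheroid shNeg replicate 1 stood apart, with a count for 16.3% of the miRNAs in the table against 30.6% to 33.3% in the other 3 of its group. Most results whose call it changes are given with and without it. Levels are CPM, counts relative to the library total after TMM scaling. Fold changes come from edgeR's quasi-likelihood test across all 905 miRNAs, FDR denotes the Benjamini-Hochberg value over them, and a miRNA was called at an FDR below 0.01 and a fold change above 2. The epithelial markers of the miR-200 family and miR-205-5p were all tested, and their sum ran from 2486 to 9635 CPM in adherent and from 3222 to 16338 CPM in spheroid libraries. It came mostly from miR-200c-3p and miR-205-5p, which averaged 5451 and 1055 CPM over all libraries. miR-141-3p, miR-200b-3p, miR-200a-3p and miR-429 averaged 123, 22.1, 6.04 and 0.738 CPM. Of 7 blood and serum markers, 5 were tested, and their sum ran from 18265 to 29429 CPM in adherent and from 13942 to 24624 CPM in spheroid libraries. Nearly all of it was miR-122-5p, which averaged 19597 CPM over all libraries. miR-486-5p ran from 15.5 to 707 CPM, and miR-451a, miR-223-3p and miR-142-3p reached at most 10.3 CPM. The other marker sums ran in adherent and spheroid libraries from 68.0 to 366 and from 72.6 to 315 CPM for 5 fibroblast and smooth muscle markers, from 2093 to 8827 and from 538 to 1667 CPM for the endothelial miR-126-3p, up to 4.85 and 5.58 CPM for striated muscle and from 107 to 330 and from 23.5 to 143 CPM for 2 neural markers. In adherent cells the fibroblast sum was 316 to 366 CPM in shNeg and 68.0 to 120 CPM in shRELA, and the epithelial sum was 4853 to 5075 CPM in shNeg, 2486 to 3449 CPM in shRELA and 7800 to 9635 CPM in shRELB. The part of other cell types in the results below was not tested.

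miR-483 was by far the most abundant of the 4 hairpins, and its leading arm changed with culture. In adherent cells nearly all of its reads came from the 3p arm, and in spheroids nearly all came from the 5p arm. miR-483-3p, which is known to repress the pro-apoptotic BBC3, stood at 10731, 8879.9, 11562 and 12501 CPM in the adherent shNeg libraries, at 12931, 14066, 13331 and 13942 CPM in adherent shRELA, and at 28259.7, 34255, 22853 and 25113 CPM in adherent shRELB. In spheroids it stood at 2594, 1542, 1558 and 1724 CPM in shNeg, at 1039.8, 697, 687 and 1143 CPM in shRELA, and at 2145, 2251, 2357 and 2835 CPM in shRELB. Every adherent library thus lay above every spheroid library.

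The 5p arm had the opposite order. miR-483-5p, a strand widely studied as a circulating marker in adrenocortical tumors, stood at 1021, 678, 1019 and 1137 CPM in adherent shNeg, at 1168, 1333, 1733 and 1026 CPM in adherent shRELA, and at 3013, 3247, 2554 and 3873 CPM in adherent shRELB. In spheroids it stood at 71803, 23246, 16082 and 12336 CPM in shNeg, at 10908, 8098, 8279 and 8003 CPM in shRELA, and at 37658, 32939.9, 24534 and 51723 CPM in shRELB. Every spheroid library lay above every adherent library, and the highest value belonged to spheroid shNeg replicate 1.

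Over the groups, miR-483-5p fell in the order spheroid shRELB (36714 ± 11383, SD, n = 4), spheroid shNeg (30867 ± 27663, or 17221 ± 5544 without replicate 1), spheroid shRELA (8822 ± 1396), adherent shRELB (3172 ± 549), adherent shRELA (1315 ± 306) and adherent shNeg (964 ± 198). Spheroid shRELB and shNeg overlapped, as did adherent shRELA and shNeg. The 3p arm fell in the order adherent shRELB (27620.0 ± 4948), adherent shRELA (13567 ± 532), adherent shNeg (10918 ± 1539), spheroid shRELB (2397 ± 305), spheroid shNeg (1854 ± 500) and spheroid shRELA (891 ± 235), and of these neighbors only the spheroid shRELB and shNeg libraries overlapped. By mean level, miR-483-3p ranked 21 among the 905 miRNAs in adherent shNeg and 49 in spheroid shNeg, and miR-483-5p ranked 72 and 8. The highest shares of a group's counts were 2.78% ± 0.334 for miR-483-3p in adherent shRELB and 3.78% ± 0.981 for miR-483-5p in spheroid shRELB.

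**Figure D1:**
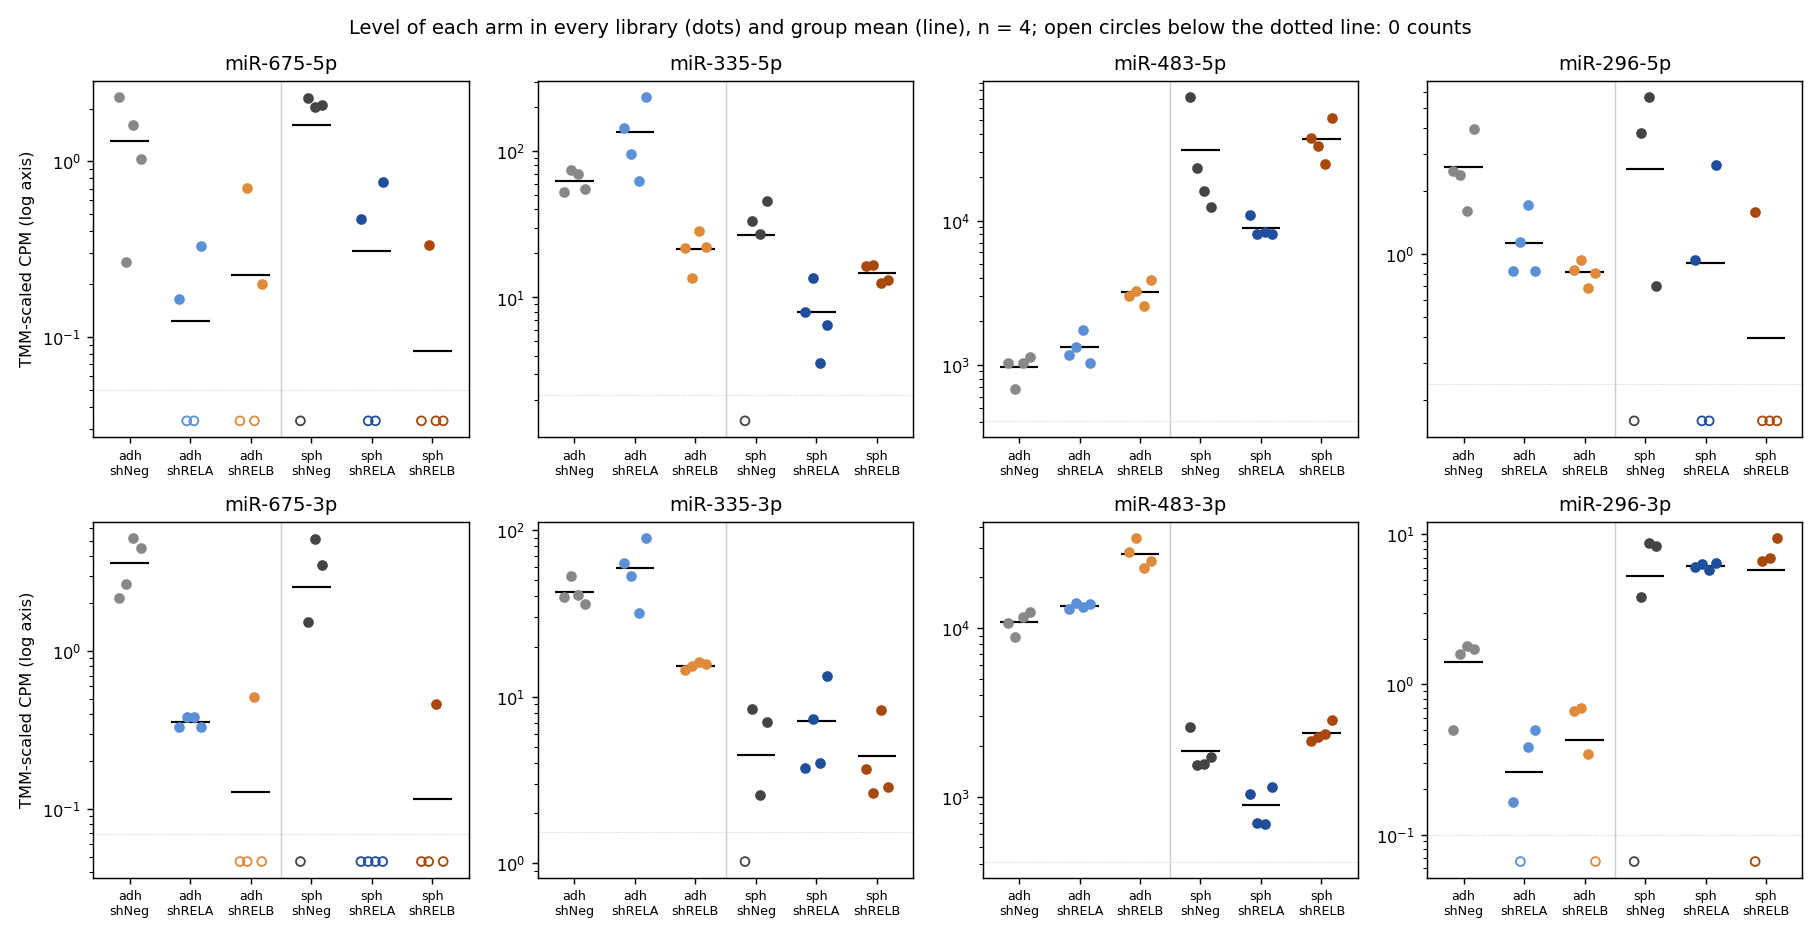
Level of each arm (TMM-scaled CPM, log axis) in the 6 groups (adh, adherent; sph, spheroid). Dots are the 4 libraries of a group, lines their mean, and open circles libraries with 0 counts. miR-483-5p lies higher in all 12 spheroid than in all 12 adherent libraries and miR-483-3p lower, while both arms of miR-675 and miR-296 stay below 10 CPM.

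Both changes passed the test in each shRNA background. From adherent to spheroid culture, miR-483-5p rose with a log2 fold change of 5.0 ± 0.38 (SE) in shNeg, which is 32-fold (FDR = 3.29e-13), of 2.75 ± 0.34 in shRELA (FDR = 4.98e-08) and of 3.53 ± 0.35 in shRELB (FDR = 7.02e-10), all by edgeR's quasi-likelihood test. Without spheroid shNeg replicate 1 the rise in shNeg was 4.16 on the log2 scale, which is 17.9-fold. miR-483-3p fell with a log2 fold change of -2.56 ± 0.20 in shNeg (FDR = 4.48e-13), of -3.93 ± 0.21 in shRELA (FDR = 2.71e-17) and of -3.53 ± 0.20 in shRELB (FDR = 4.59e-16). Scaled to miR-30e-5p, the qPCR reference of the study, the log2 fold change of miR-483-3p in shNeg was -0.76 and no longer called (FDR = 0.0167). That scaling also moved the median of all miRNAs in the shNeg, shRELA and shRELB culture comparisons to 1.41, 1.90 and 1.28, from -0.26, 0.07 and -0.00 with TMM, and miR-30e-5p itself stood at 1246 ± 69.0 CPM in adherent and 386 ± 83.8 CPM in spheroid shNeg. In bulk libraries a change in every cell and a change in the share of cells cannot be told apart.

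The ratio of the arms within a library does not depend on scaling. The log2 ratio of miR-483-3p to miR-483-5p counts, with 0.5 counts added to each, was 3.39, 3.71, 3.50 and 3.46 in adherent shNeg and -4.79, -3.91, -3.37 and -2.84 in spheroid shNeg. It ran from 2.70 to 3.76 over the 12 adherent libraries and from -4.79 to -2.81 over the 12 spheroid libraries, so the cultures did not overlap in any shRNA background. In shares, the 3p arm held 91.9% ± 0.685 of miR-483 counts in adherent shNeg and 7.70% ± 3.74 in spheroid shNeg, 91.2% ± 1.95 and 9.19% ± 2.25 in shRELA, and 89.6% ± 2.04 and 6.44% ± 1.64 in shRELB (n = 4 each).

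The ratio was compared by limma over all 214 hairpins with both arms tested, with a call at an FDR below 0.05. From adherent to spheroid culture the log2 ratio of miR-483 changed by -7.24 ± 0.29 in shNeg (FDR = 2.04e-16), by -6.73 ± 0.29 in shRELA (FDR = 1.14e-15) and by -7.02 ± 0.29 in shRELB (FDR = 4.32e-16). In each of the 3 backgrounds this was the largest change of any of the 214 hairpins. Arm changes with culture were common, with 46.3%, 37.9% and 37.4% of the hairpins called in shNeg, shRELA and shRELB, and the median absolute change was 1.51, 1.26 and 1.21. An exact two-sided permutation test over the 4 against 4 libraries gave p = 0.0286 for miR-483 in each background, the smallest value this design allows.

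**Figure D2:**
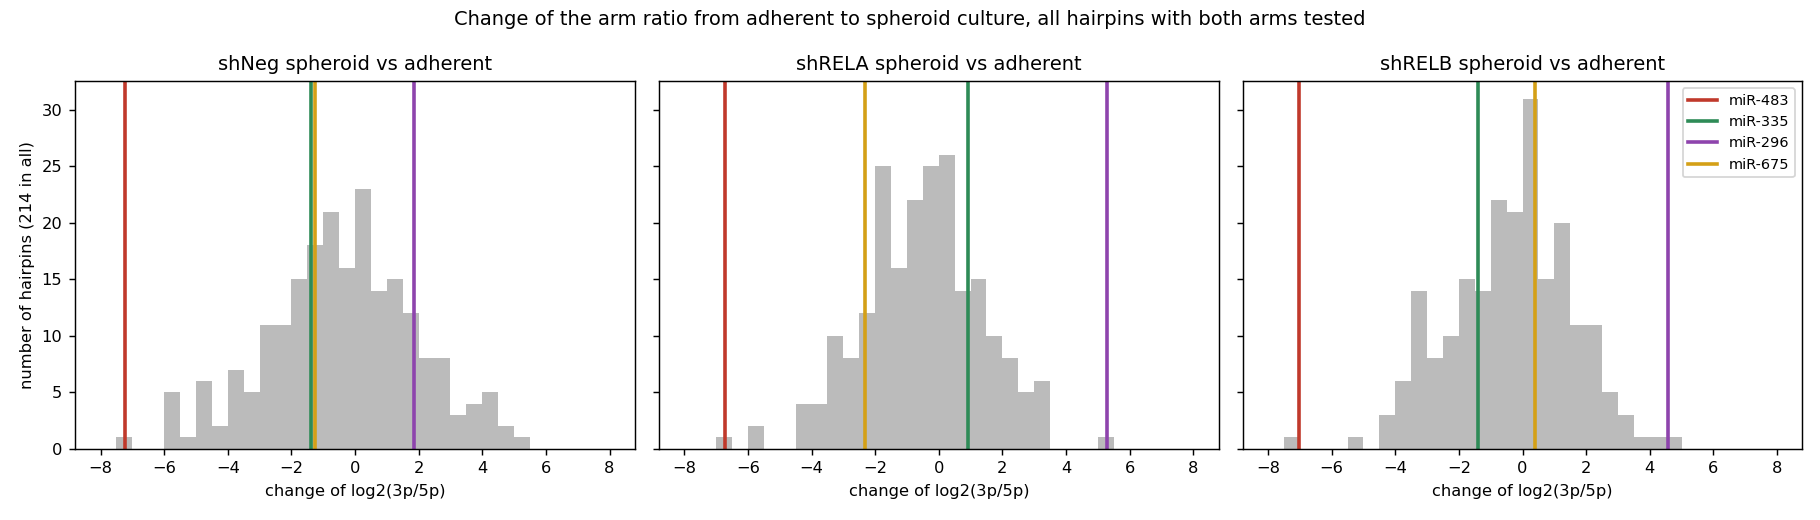
Change of the log2 ratio of the 3p to the 5p arm from adherent to spheroid culture, for shNeg, shRELA and shRELB. Grey bars count the 214 hairpins with both arms tested in bins of 0.5, and colored lines mark the 4 hairpins. The miR-483 line, between -7.24 and -6.73, lies at the far left of each panel.

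Only 3 of the 214 hairpins had the 3p arm ahead in all 12 libraries of 1 culture and the 5p arm ahead in all 12 of the other, namely miR-423, miR-483 and miR-574. These were chosen after their values were seen, and both of the others turned the same way as miR-483 by a smaller amount. The mean log2 ratio of miR-423 was 0.58 ± 0.13 in adherent and -2.31 ± 0.35 in spheroid shNeg, and that of miR-574 was 1.46 ± 0.12 and -1.08 ± 0.19. Within a culture the arms of miR-483 moved together. Over the 12 adherent libraries the Spearman correlation of their CPM was 0.92, over the 12 spheroid libraries it was 0.89, and over all 24 it was -0.53, where the points of a culture share shRNA groups and library scaling.

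**Figure D3:**
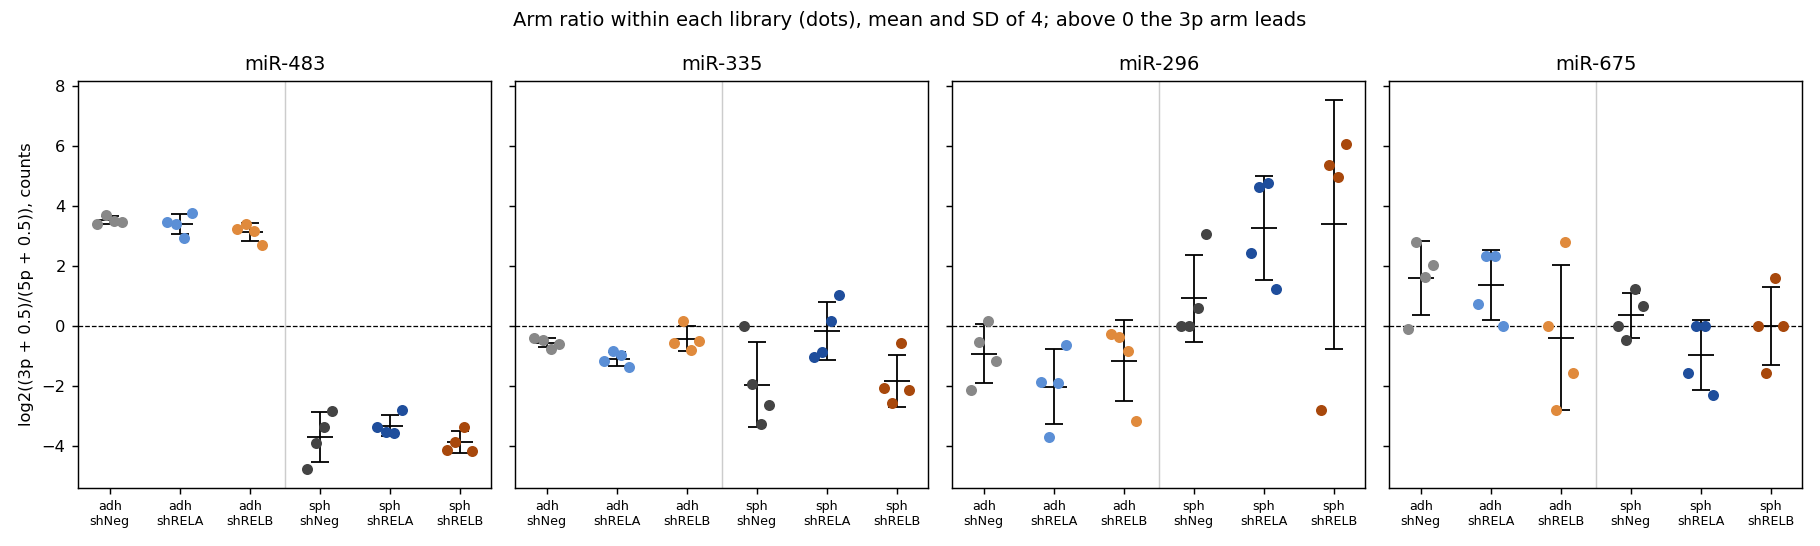
Log2 ratio of 3p to 5p counts (0.5 added to each) within each library for the 4 hairpins in the 6 groups. Dots are libraries, and bars give the mean and SD of 4. Above the dashed line at 0 the 3p arm leads, as for miR-483 in all 12 adherent libraries, while its 12 spheroid libraries lie at -2.81 or below.

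shRELB raised both arms of miR-483 in adherent cells, and shRELA lowered both in spheroids. In adherent cells shRELB raised miR-483-5p with a log2 fold change of 1.72 ± 0.33 (FDR = 1.86e-04) and miR-483-3p with 1.34 ± 0.19 (FDR = 1.82e-06), and for both arms all 4 shRELB libraries lay above all 4 shNeg libraries. Adherent shRELA gave 0.45 ± 0.32 (FDR = 0.494) and 0.31 ± 0.18 (FDR = 0.401), and neither was called. Against shRELB in the same culture, the shRELA level of miR-483-5p was lower by a log2 fold change of -1.27 ± 0.32 (FDR = 0.00394) and that of miR-483-3p by -1.03 ± 0.19 (FDR = 7.47e-05). The call of miR-483-5p between the knockdowns was lost without replicate 1, 2 or 4 of adherent shRELA or replicate 2 or 4 of adherent shRELB (FDR = 0.0108 to 0.0219). That of miR-483-3p was lost without adherent shRELB replicate 2, where its log2 fold change was -0.90, and with DESeq2 or median-ratio factors in edgeR, where it was -0.95.

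In spheroids shRELA gave a log2 fold change of -1.81 ± 0.33 for miR-483-5p (FDR = 6.09e-05) and of -1.06 ± 0.19 for miR-483-3p (FDR = 4.57e-05), and all 4 shRELA libraries lay below all 4 shNeg libraries for both. Without spheroid shNeg replicate 1, the values were -0.97 for miR-483-5p (FDR = 2.01e-04) and -0.85 for miR-483-3p (FDR = 7.24e-05), under the required 2-fold change. miR-483-3p also fell just under it without replicate 2 or 3 of spheroid shRELA (-0.96 and -1.0), and miR-483-5p lost its call when only these groups were fitted (-1.82, FDR = 0.0144). Spheroid shRELB gave 0.25 ± 0.32 for miR-483-5p (FDR = 0.582) and 0.37 ± 0.18 for miR-483-3p (FDR = 0.140). The value of miR-483-5p depended on replicate 1 of spheroid shNeg, without which it was 1.09 and called (FDR = 5.13e-05), and it turned to -0.26 when scaled to miR-30e-5p. The spheroid knockdowns also differed from each other, with shRELA below shRELB by a log2 fold change of -2.06 ± 0.33 for miR-483-5p (FDR = 1.87e-05) and of -1.43 ± 0.19 for miR-483-3p (FDR = 7.12e-07).

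The effect of shRELA on miR-483 differed between the cultures by the test of the difference itself. The change in spheroids minus the change in adherent cells was -2.25 ± 0.46 for miR-483-5p (FDR = 7.48e-04) and -1.37 ± 0.26 for miR-483-3p (FDR = 4.14e-04). Without spheroid shNeg replicate 1 the difference for miR-483-5p was -1.41 (FDR = 1.93e-04). Scaled to miR-30e-5p, the differences were -2.46 (FDR = 0.0103) and -1.34 (FDR = 0.0151), neither of them called. For shRELB the same difference was -1.47 ± 0.45 (FDR = 0.0223) and -0.97 ± 0.26 (FDR = 0.00842), and neither was called, the latter for its size. No knockdown comparison changed the arm ratio of miR-483 at an FDR below 0.05. The changes were -0.12 in adherent shRELA, -0.40 in adherent shRELB, 0.40 in spheroid shRELA and -0.17 in spheroid shRELB, each ± 0.29 (SE), and the first turned to 0.027 without adherent shRELA replicate 3 and the last to 0.13 without spheroid shNeg replicate 4.

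**Figure D4:**
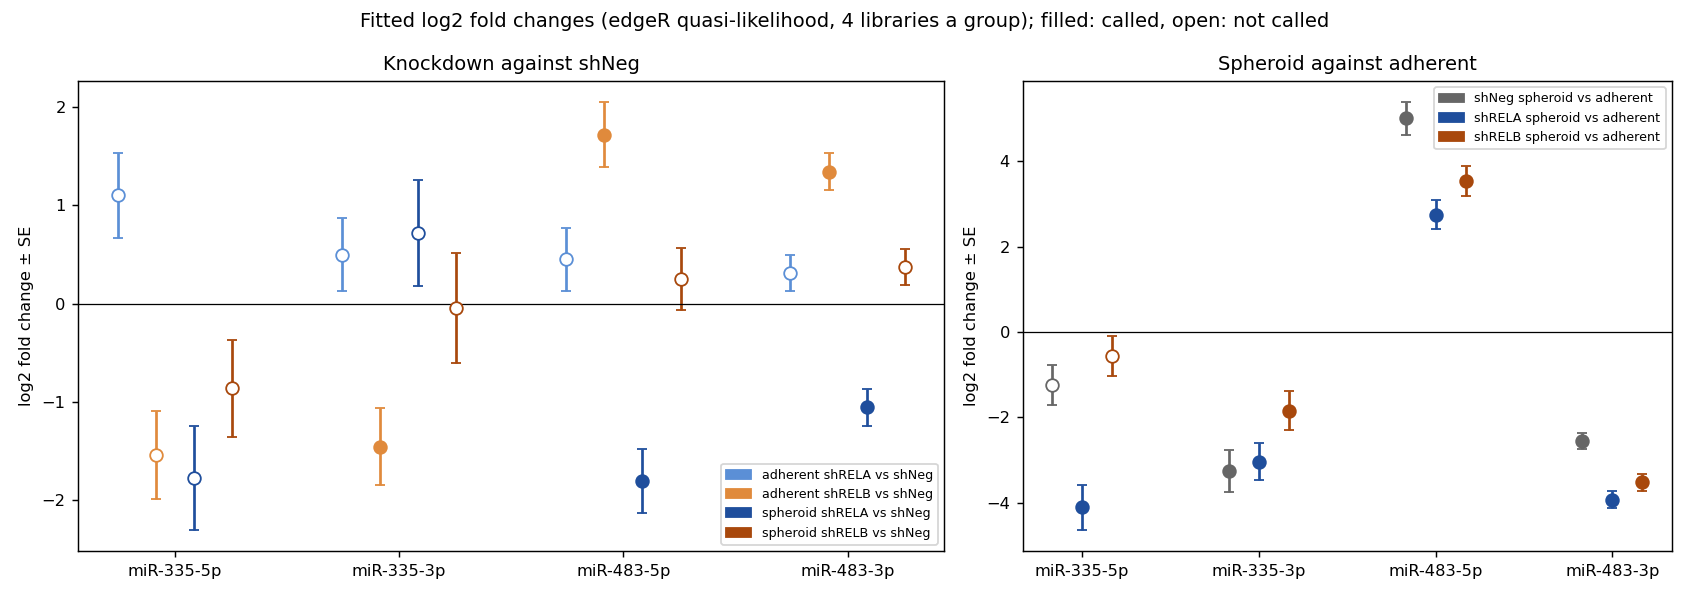
Fitted log2 fold changes ± SE of the arms of miR-335 and miR-483 for the knockdowns against shNeg (left) and for spheroid against adherent culture (right), 4 libraries per group. Filled points were called at an FDR below 0.01 and a fold change above 2. With culture miR-483-5p rises and miR-483-3p falls in all 3 backgrounds.

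miR-335, known as a suppressor of metastasis in breast cancer, was a low to moderate miRNA in these cells. It was highest in adherent shRELA and lower in spheroids and in adherent shRELB. miR-335-5p stood at 52.9, 74.1, 69.9 and 54.8 CPM in adherent shNeg, at 145, 96.2, 62.7 and 234 CPM in adherent shRELA, and at 21.7, 13.6, 28.6 and 22.2 CPM in adherent shRELB. In spheroids it stood at 0, 33.6, 27.2 and 45.6 CPM in shNeg, at 7.97, 13.7, 3.58 and 6.46 CPM in shRELA, and at 16.3, 16.6, 12.6 and 13.2 CPM in shRELB. The 0 came from spheroid shNeg replicate 1, and the other 3 libraries of that group lay above all of the spheroid shRELA and shRELB libraries.

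miR-335-3p followed a similar order in adherent cells. It stood at 39.5, 52.8, 40.9 and 36.1 CPM in adherent shNeg, at 63.8, 53, 32 and 89.9 CPM in adherent shRELA, and at 14.6, 15.2, 16.1 and 15.7 CPM in adherent shRELB. The spheroid libraries held 0, 8.40, 2.57 and 7.02 CPM in shNeg, 3.75, 7.35, 4.03 and 13.3 CPM in shRELA, and 3.69, 2.66, 8.37 and 2.87 CPM in shRELB. All 12 spheroid libraries lay below all 12 adherent libraries, and the 3 spheroid groups overlapped. The order of the means was adherent shRELA (135 ± 74.7), adherent shNeg (63.0 ± 10.7), spheroid shNeg (26.6 ± 19.3), adherent shRELB (21.5 ± 6.16), spheroid shRELB (14.7 ± 2.10) and spheroid shRELA (7.92 ± 4.24) for miR-335-5p. Of the neighbors in this order, only adherent and spheroid shNeg did not overlap. The endothelial marker miR-126-3p had a partly similar order, at 6265 to 7358 CPM in adherent shNeg, 3836 to 8827 CPM in adherent shRELA, 2093 to 2404 CPM in adherent shRELB and 538 to 1667 CPM in spheroids, and its part was not tested.

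Under the set rule, the adherent knockdowns separated from each other more clearly than from shNeg. miR-335-5p was higher in adherent shRELA than in adherent shRELB by a log2 fold change of 2.64 ± 0.46 (FDR = 4.51e-05), and miR-335-3p by 1.95 ± 0.39 (FDR = 2.95e-04), and in neither arm did the libraries overlap. With limma on log2(CPM + 1) both calls were lost (FDR = 0.0131 and 0.0102), and scaled to miR-30e-5p that of miR-335-3p was lost (1.34, FDR = 0.0164). Against shNeg, adherent shRELA gave 1.10 ± 0.44 for miR-335-5p (FDR = 0.137) and 0.50 ± 0.37 for miR-335-3p (FDR = 0.523), and neither was called. Adherent shRELB gave -1.54 ± 0.45 for miR-335-5p (FDR = 0.0175) and -1.46 ± 0.39 for miR-335-3p (FDR = 0.00878), the latter called, although all shRELB libraries lay below all shNeg libraries for both arms. The call of miR-335-3p was lost without any single library of the 8 compared (FDR = 0.0139 to 0.0311), and with limma (FDR = 0.0670), miR-30e-5p scaling (-1.32, FDR = 0.0319), library totals (FDR = 0.0173) or the replicate number as a block (FDR = 0.0125). In spheroids shRELA gave -1.77 ± 0.53 for miR-335-5p (FDR = 0.0112) and shRELB -0.86 ± 0.49 (FDR = 0.199), while miR-335-3p stood at 0.72 ± 0.53 (FDR = 0.335) and -0.05 ± 0.56 (FDR = 0.972).

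The calls of miR-335-5p against shNeg depended on the setting. With all libraries, spheroid shRELA was called with no filter (FDR = 4.23e-06), a 10 CPM minimum mean (FDR = 0.00439), median-ratio factors (FDR = 0.00618), library totals (-2.21, FDR = 0.00211), miR-30e-5p scaling (FDR = 0.00657), DESeq2 (FDR = 0.00182) and the likelihood ratio test (FDR = 0.00271). Adherent shRELB was called with no filter (FDR = 2.40e-06), the likelihood ratio test (FDR = 0.00847) and only the groups compared (FDR = 8.40e-07). Without spheroid shNeg replicate 1, which enters the shared estimate of the spread, miR-335-5p was called in all 4 knockdown comparisons. It was then higher in adherent shRELA (1.09, FDR = 0.00185) and lower in adherent shRELB (-1.54, FDR = 1.75e-05), spheroid shRELA (-2.18, FDR = 4.90e-06) and spheroid shRELB (-1.26, FDR = 0.00334). The effect of shRELA differed between the cultures with that library (-2.87 ± 0.69, FDR = 0.00353) and without it (-3.27, FDR = 1.23e-06). The shRELA difference was lost without adherent shRELA replicate 4, spheroid shNeg replicate 2 or 4, or spheroid shRELA replicate 3 or 4 (FDR = 0.0108 to 0.0147), with limma (-1.77, FDR = 0.238) and scaled to miR-30e-5p (-2.44, FDR = 0.0128). For miR-335-3p it was 0.22 ± 0.65 (FDR = 0.847).

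With culture, miR-335-3p fell in every background, with a log2 fold change of -3.26 ± 0.48 in shNeg (FDR = 6.72e-07), of -3.04 ± 0.44 in shRELA (FDR = 7.59e-07) and of -1.85 ± 0.46 in shRELB (FDR = 0.00143). miR-335-5p fell in shRELA (-4.11 ± 0.52, FDR = 9.25e-08), and gave -1.24 ± 0.47 in shNeg (FDR = 0.0231) and -0.56 ± 0.47 in shRELB (FDR = 0.354), which turned to 0.37 and 0.77 when scaled to miR-30e-5p. The value in shNeg was -0.83 without spheroid shNeg replicate 1 (FDR = 0.0203), and it was called without replicate 4 of that group (-1.80, FDR = 0.00238) and with no filter (FDR = 5.85e-06). Under that scaling miR-335-3p stood at -1.05 in shRELA (FDR = 0.0377) and -0.53 in shRELB (FDR = 0.347), neither called. Within a library, miR-335-5p made up 0.0503 ± 0.00594 of the miR-30e-5p level in adherent shNeg, 0.0741 ± 0.0151 in adherent shRELA and 0.0190 ± 0.00593 in adherent shRELB, and 0.0636 ± 0.0457, 0.0178 ± 0.00960 and 0.0324 ± 0.00638 in the spheroid groups in that order.

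The 5p arm of miR-335 led in most libraries, by a smaller margin than in miR-483. The log2 ratio of 3p to 5p was -0.57 ± 0.15 in adherent shNeg, -1.10 ± 0.23 in adherent shRELA and -0.43 ± 0.42 in adherent shRELB, and -1.97 ± 1.42, -0.18 ± 0.96 and -1.84 ± 0.87 in the spheroid groups. With all libraries the only call was spheroid shRELA against shNeg, at 1.79 ± 0.58 by limma (FDR = 0.0340), in a comparison with 19.6% of hairpins called. It was lost without replicate 2, 3 or 4 of spheroid shNeg or replicate 3 or 4 of spheroid shRELA (FDR = 0.0506 to 0.111) and in a fit with the replicate number as a block (FDR = 0.0508), and an exact permutation test gave p = 0.0857. Without spheroid shNeg replicate 1, whose ratio is set by the added 0.5 counts, the change was 2.44 (FDR = 7.01e-04). Leaving out that library also gave a call to the change with culture in shNeg, which was -1.40 (FDR = 0.0522) with it and -2.05 (FDR = 0.00125) without it, and to the difference between cultures in the effect of shRELA, which was 2.31 ± 0.82 (FDR = 0.0984) with it. The change in shRELB, -1.41, was called without spheroid shRELB replicate 3 (-1.83, FDR = 0.0185). Over the 12 adherent libraries the Spearman correlation of the arms was 0.97, and over the 12 spheroid libraries it was 0.06. The spheroid value rests on few counts. For example, miR-335-3p had 0, 11, 5 and 10 counts in spheroid shNeg against 238, 198, 228 and 210 in adherent shNeg. The part of depth in the lower correlation was not tested.

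miR-675, the miRNA of the H19 exon, was at most 5.20 CPM in any library, and its 3p arm was lower in both knockdowns than in shNeg. No knockdown library reached 1 CPM of either arm, so both arms passed the filter only through shNeg libraries. The comparisons with shNeg below are thus of arms kept because shNeg was high. The counts of miR-675-3p were 13, 10, 29 and 26 in adherent shNeg, 2 in each adherent shRELA library, and 0, 0, 3 and 0 in adherent shRELB. In spheroids they were 0, 2, 10 and 5 in shNeg, 0 in all 4 shRELA libraries, and 0, 0, 1 and 0 in shRELB. Both adherent knockdowns lay below every adherent shNeg library, while the 0 of spheroid shNeg replicate 1 overlapped the spheroid knockdowns.

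Because the counts are few, folds were taken from the counts summed over a group, with an exact 95% interval that covers counting error only. miR-675-3p was 10.4-fold lower in adherent shRELA than in shNeg (interval 5.03 to 24.9) and called (FDR = 0.00858). It was 25.9-fold lower in adherent shRELB (8.53 to 128), which was called (FDR = 7.16e-04). In spheroid shRELA, with 0 against 17 counts, it was at least 8.34-fold lower when the floor is set at 3 counts over the group, while the exact interval began at 6.08-fold (FDR = 0.00204), and in spheroid shRELB it was 29.6-fold lower on a single count (4.64 to 1239, FDR = 0.00643). The call in adherent shRELA was lost without any single library of the 8 compared (FDR = 0.0123 to 0.0449), that in spheroid shRELB without replicate 3 or 4 of spheroid shNeg or replicate 1, 2 or 4 of spheroid shRELB (FDR = 0.0126 to 0.0331), and that in spheroid shRELA without spheroid shNeg replicate 3 (FDR = 0.0112).

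The counts of miR-675-5p were 14, 1, 9 and 6 in adherent shNeg, 1, 0, 0 and 2 in adherent shRELA, and 0, 3, 0 and 1 in adherent shRELB. In spheroids they were 0, 3, 4 and 3 in shNeg, 1, 0, 0 and 2 in shRELA, and 0, 1, 0 and 0 in shRELB. The shNeg libraries held most of the counts, but every comparison overlapped and none was called with all libraries. Relative to each knockdown, shNeg was 10.7-fold higher over adherent shRELA (3.32 to 54.6, FDR = 0.0579), 7.46-fold over adherent shRELB (2.63 to 29.1, FDR = 0.0878), 4.91-fold over spheroid shRELA (1.26 to 27.8, FDR = 0.162) and 17.4-fold over spheroid shRELB (2.48 to 757, FDR = 0.0365). With culture, edgeR called neither arm of miR-675 in any background, and neither had an unadjusted p under 0.05. The arm ratio of miR-675 was not called in any comparison, and with 0 to 8 counts per arm in each knockdown group it was not resolved at this depth.

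miR-296 was also rare, and its 3p arm rose in spheroids of both knockdowns. The counts of miR-296-3p were 3, 6, 10 and 10 in adherent shNeg, 1, 0, 2 and 3 in adherent shRELA, and 4, 3, 2 and 0 in adherent shRELB. In spheroids they were 0, 5, 17 and 12 in shNeg, 13, 12, 13 and 17 in shRELA, and 0, 20, 15 and 33 in shRELB, from libraries with fewer counts in all. Replicate 1 of spheroid shNeg and replicate 1 of spheroid shRELB had none, and without these 2 every spheroid library held at least 3.82 CPM against at most 1.79 CPM in adherent cells. No adherent knockdown library reached 1 CPM of miR-296-3p, and the adherent libraries alone did not meet the filter. The comparisons between cultures below are thus of an arm kept because spheroids were high.

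Summed over the group, miR-296-3p was 23.3-fold higher in spheroid than in adherent shRELA (10.0 to 66.1, FDR = 6.29e-05) and 15.1-fold higher in shRELB (7.50 to 34.4, FDR = 3.04e-04), the latter lost with limma (FDR = 0.0159). In shNeg the log2 fold change was 1.93 ± 0.73 and not called (FDR = 0.0232), and without spheroid shNeg replicate 1 it was 2.33 and called (FDR = 0.00132). It was also called with library totals (2.38, FDR = 0.00642), miR-30e-5p scaling (3.51, FDR = 1.65e-04), DESeq2 (2.04, FDR = 0.00996) and the likelihood ratio test (1.91, FDR = 0.00976). miR-296-5p counted 15, 9, 9 and 23 in adherent shNeg, 5, 6, 9 and 5 in adherent shRELA, and 5, 4, 4 and 4 in adherent shRELB, and the spheroid libraries held 0, 5, 11 and 1, then 2, 0, 0 and 7, then 3, 0, 0 and 0. By edgeR with all libraries it was called in no comparison. Its smallest FDR was 0.0388, in spheroid shRELB, where the shNeg level was 9.88-fold higher (2.86 to 52.6).

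The arm ratio of miR-296 therefore shifted toward the 3p arm with culture, opposite to miR-483. The change of the log2 ratio was 5.30 ± 1.38 in shRELA (limma, FDR = 0.00369) and 4.56 ± 1.38 in shRELB (FDR = 0.0113), ranks 4 and 3 among the 214 hairpins, and 1.84 ± 1.38 in shNeg, where it was not called. The change in shRELB was lost without spheroid shRELB replicate 4 (3.67, FDR = 0.0522) and had p = 0.114 in an exact permutation test. Of the 8 spheroid knockdown libraries 5 held no 5p count, so these ratios depend on the added 0.5 counts. They also rest on a 3p arm that passed the filter only through spheroid libraries.

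Across the 8 arms, the share called was near that of all miRNAs in some comparisons, above it in others, and 0 for the shRELB difference between cultures. The arms of miR-483 and those of miR-335 moved together in adherent cells (Spearman 0.92 and 0.97), so the 8 arms are not independent members. Against shNeg, 1 arm was called in adherent shRELA (background 3.76% of all miRNAs), 4 in adherent shRELB (7.07%), 3 in spheroid shRELA (15.1%) and 1 in spheroid shRELB (13.4%). These comparisons share their shNeg libraries within a culture, and miR-675-3p, which passed the filter only through shNeg, was called in each. Between cultures 3 arms were called in shNeg (background 42.2%), 5 in shRELA (32.6%) and 4 in shRELB (25%). miR-296-3p, which passed the filter only through spheroid libraries, was among those called in shRELA and shRELB. Between shRELA and shRELB 4 arms were called in adherent cells (10.9%) and 2 in spheroids (6.63%). The difference between cultures in the effect of shRELA was called for 3 arms (7.62%). That of shRELB was called for 0 arms by edgeR (8.51%), against 3 at an unadjusted p under 0.05, 2 by DESeq2 and 0 by limma.

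Libraries of the 2 groups did not overlap for 3 arms in adherent shRELA against shNeg (20.7% of all miRNAs), 6 in adherent shRELB (33.1%), 2 in spheroid shRELA (22.5%) and 0 in spheroid shRELB (17.3%). Between cultures this held for 4 arms in shNeg (47.5%), 6 in shRELA (46.3%) and 3 in shRELB (41.5%), and between the knockdowns for 4 in adherent cells (31.3%) and 2 in spheroids (20.4%). Arm ratios were called for 1, 2 and 2 of the 4 hairpins with culture in shNeg, shRELA and shRELB, against the shares of hairpins given above. In the knockdown comparisons 1 ratio was called, in spheroid shRELA. By limma 0 were called against shNeg in adherent shRELA (background 0%), adherent shRELB (0.935%) and spheroid shRELB (16.8%), and 0 had an unadjusted p under 0.05 there. Between the knockdowns 0 were called in adherent cells (0.467%) and in spheroids (2.34%), and 0 for the difference between cultures in the effect of shRELA (8.41%) and of shRELB (7.48%), with 0, 1, 1 and 0 at an unadjusted p under 0.05.

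The direction of arm changes with culture followed the base composition of the arms over all hairpins with both sequences in RefSeq, 180 of the 214. The Spearman correlation between the difference in G content (3p minus 5p) and the change of the log2 arm ratio was 0.57 in shNeg, 0.68 in shRELA and 0.64 in shRELB, over hairpins that share the same libraries. For G plus C it was 0.39, 0.41 and 0.27, for U -0.22, -0.20 and -0.22, and for length between -0.04 and -0.02. miR-296, whose 3p arm has 31.0 percentage points more G, changed by 1.84, 5.30 and 4.56 in shNeg, shRELA and shRELB. miR-335 differed by -8.30 points and changed by -1.40, 0.92 and -1.41. miR-675 differed by -32.8 points and changed by -1.24, -2.32 and 0.40, where its counts are few. miR-483, which had the largest arm change, is not among the 180, because its arms had no RefSeq entry. Its change could therefore not be set against this trend. The part of base composition in the arm changes was not tested.

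**Figure D5:**
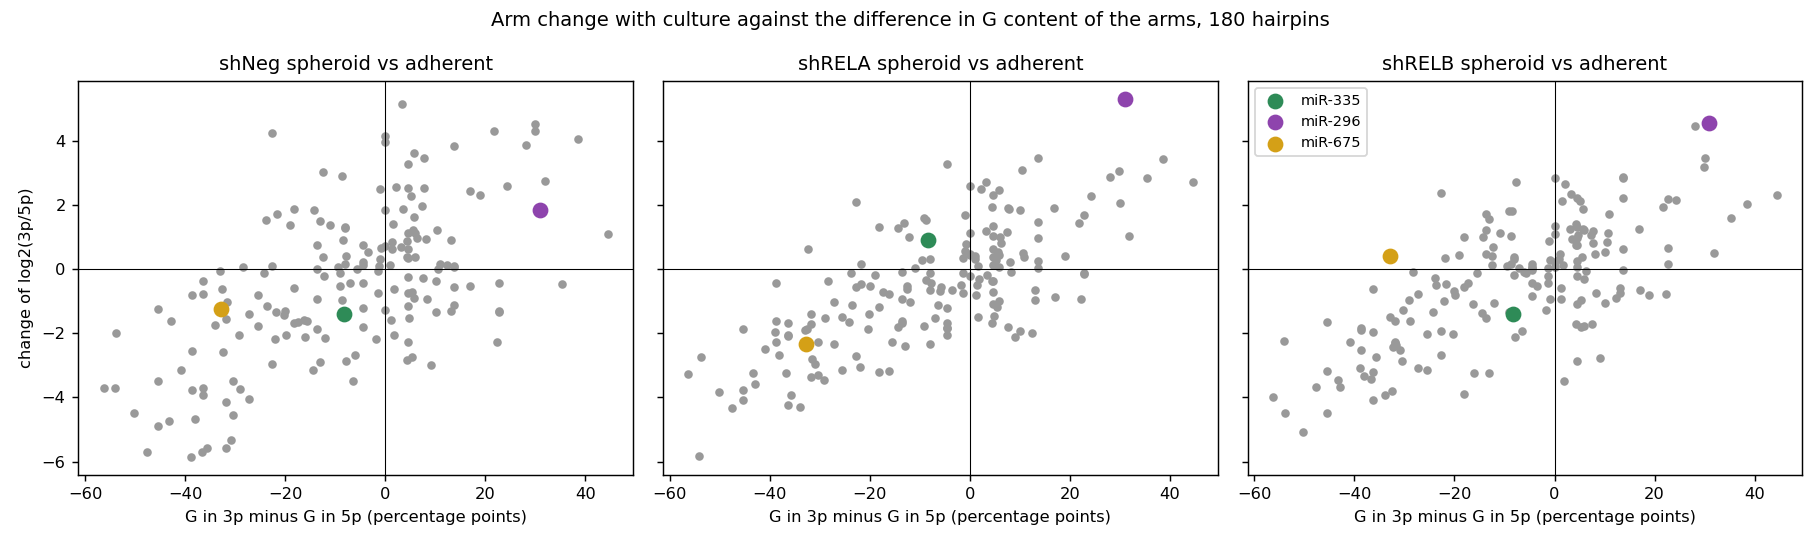
Change of the log2 3p to 5p ratio from adherent to spheroid culture against the difference in G content of the arms (3p minus 5p, percentage points) for 180 hairpins in 3 shRNA backgrounds. Each dot is a hairpin, and miR-335, miR-296 and miR-675 are colored. miR-483 had no RefSeq sequence and is not shown. Dots rise from lower left to upper right (Spearman 0.57, 0.68 and 0.64), with miR-296 at upper right in shRELA and shRELB.

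Other imprinted miRNA loci were nearly silent in these cells. miR-298, the neighbor of miR-296 in the GNAS locus, had 0 counts in all 24 libraries. Of 92 miRNAs of the DLK1-MEG3-DIO3 cluster, a large maternally expressed cluster, 29 had a count, 1 was tested and 0 were called in any comparison by edgeR. Of 66 miRNAs of the primate-specific placental cluster C19MC, 54 had a count and 12 were tested. Those 12 held only 6 distinct count profiles, and no library held more than 19 counts of any. Of the 12, 2 were called lower in spheroid shRELB than in shNeg (13.4% of all miRNAs called) and 0 in the other 3 knockdown comparisons. With culture 0 were called in shNeg (42.2%), 9 higher in shRELA (32.6%) and 2 lower in shRELB (25%). The 2 were each time miR-517a-3p and miR-517b-3p, which had identical values. The 9 were this pair, miR-1323 and the 6 tied miRNAs named below. The medians of the fitted log2 fold changes of the 12 with culture were 1.64, 3.64 and 0.038, against -0.26, 0.07 and -0.00 for all miRNAs. These fits depend on the prior count at so few reads. The highest mean was 2.17 CPM, shared by miR-522-5p, miR-518e-5p, miR-523-5p, miR-519a-5p, miR-519b-5p and miR-519c-5p, which carried identical values in every library.

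The miRNAs whose levels most resembled each arm differed between the arms of a hairpin. Likeness was taken as the Spearman correlation over the 24 libraries among the 331 other miRNAs that averaged 10 CPM or more, and these libraries share culture, shRNA and depth. miR-483-5p was closest to miR-3679-5p (0.98), miR-5187-5p (0.97) and miR-185-3p (0.96), and miR-483-3p to miR-3173-5p (0.88), miR-361-5p (0.88) and miR-181a-3p (0.87). miR-335-5p was closest to miR-455-5p (0.88), miR-126-5p (0.88) and miR-19b-3p (0.86), and miR-335-3p to miR-106b-5p (0.94), miR-190a-5p (0.94) and miR-30b-5p (0.93). miR-3679-5p, for example, stood at 26.5 ± 5.19 CPM in adherent and 702 ± 415 CPM in spheroid shNeg.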

How the data were processed

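miRNA libraries of 24 OV90 samples were prepared by the authors with the QIAseq miRNA kit, trimmed with Cutadapt and assigned to miRBase on GRCh38 with miRDeep2. The deposited table gives estimated counts of mature miRNAs without scaling. It is titled as CPM, but its totals differ between libraries. Whether the molecular indices of the kit were collapsed is not given in the sources used here. Values that were not whole (3.04% of non-zero values, on 84 miRNAs and none of the 8 arms) were rounded.

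The filter kept 905 miRNAs that reached 1 CPM in 4 or more libraries. Counts were scaled by TMM and fitted over all 24 libraries with the 6 groups as the only term in edgeR 4.0.16 (R 4.3.3, glmQLFit and glmQLFTest). SE was obtained from the log2 fold change and the F statistic. Arm ratios were fitted with limma 3.58.1 over 214 hairpins. DESeq2 1.42.0 was an alternative, as were other filters, scalings, tests, thresholds and single libraries left out. The test was checked on simulated counts. The arms, lists and tests were chosen with earlier results of these data known. Named beside the 8 arms were the 3 closest miRNAs of each arm that averaged 10 CPM or more, and the highest miRNAs of other imprinted loci, set at 3 but printed as the 6 tied at the top. Library totals ran from 959141 to 8283549 counts. The limit for a count of 0 was set at 3 counts, and all intervals cover counting error only. The replicate numbers did not pair the samples: 36 correlations of same-numbered deviations ran from -0.52 to 0.36, and in 0 of 9 comparisons were all over 0.1.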

Additional observations from a re-analysis of the deposited data

Results flagged for a closer look

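Dixon's test at the 95% level looked for a single library far from the rest of its group of 4. It flagged 4 of the 71 groups examined. Groups with 3 or fewer counts in all were among the 71 but were never flagged. An example is miR-675-3p in adherent shRELB, with 0, 0, 3 and 0 counts. The number flagged can therefore not be set against the 1 in 20 given by chance. Spheroid shNeg replicate 1 held 0 CPM of miR-675-5p, and the nearest of its group held 2.05 CPM. Spheroid shRELA replicate 1 held 10908 CPM of miR-483-5p, with the nearest at 8279 CPM. Adherent shNeg replicate 1 held 0.497 CPM of miR-296-3p, with the nearest at 1.60 CPM. The log2 3p to 5p ratio of miR-296 was -2.81 in spheroid shRELB replicate 1, with the nearest at 4.95.

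The effect of shRELA differed between spheroid and adherent culture for 3 arms by edgeR's interaction term (FDR below 0.01 and more than 2-fold). The difference of the log2 fold changes, spheroid minus adherent, was -2.87 for miR-335-5p (FDR = 0.00353), -2.25 for miR-483-5p (FDR = 7.48e-04) and -1.37 for miR-483-3p (FDR = 4.14e-04).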

How the results depend on the processing

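Of 165 counts of called arms or ratios under another setting, 138 stayed within 1.5 times the reported count, and the cause of the other 27 was not tested. For the shRELB difference between cultures (0 arms), 1 arm was called with no filter, a minimum mean of 10 CPM, median-ratio factors, miR-30e-5p scaling or an FDR of 0.05, and 2 with library totals or DESeq2. Spheroid shRELB (1 arm) gave 0 with a minimum mean of 10 CPM or only the groups compared, 2 with the likelihood ratio test and 3 at an FDR of 0.05. Adherent shRELA (1) gave 0 with a minimum mean of 10 CPM and 0 with the replicate block. The shRELA difference (3) gave 0 with miR-30e-5p scaling, adherent shRELA against shRELB (4) gave 2 with limma, shNeg culture (3) gave 5 at an FDR of 0.05, and spheroid shRELA (3) gave 1 with only the groups compared. For arm ratios, shNeg culture (1) gave 2 with a pseudocount of 1. Spheroid shRELA (1) gave 0 with at least 10 counts, the replicate block or the permutation test, and shRELA and shRELB culture (2 each) gave 1 with at least 10 counts, a filter that kept only miR-483 of the 4 hairpins. The permutation test was counted at an unadjusted p below 0.05, so its counts are not like those by FDR. It gave 1 in shRELB culture, in adherent shRELA against shNeg and in adherent shRELA against shRELB (both from 0). For the shRELA difference it gave 2 (from 0). There it shuffled the knockdown labels within each culture, which does not test the difference between cultures alone. The block changed no other call count by over 1.5 times.

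Leaving out 1 library, called arms ranged from 0 to 2 in adherent shRELA, 3 to 5 in adherent shRELB, 2 to 3 in spheroid shRELA, 0 to 4 in spheroid shRELB, 3 to 4 in shNeg culture, 2 to 4 between adherent knockdowns, 2 to 3 for the shRELA difference and 0 to 1 for that of shRELB. Called ratios ranged from 1 to 2 in shNeg culture, 1 to 3 in shRELB culture, and 0 to 1 in spheroid shRELA, spheroid shRELB and both differences. Without spheroid shNeg replicate 1, adherent shRELA had 2 called arms and spheroid shRELB 4. The 4 included miR-675-3p, miR-335-5p and miR-483-5p, and the values of the remaining arm without that library are not given above.

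Signs turned only for values that were not called in the reported fit, although some of them were called under other settings given above. miR-483-5p in spheroid shRELB was -0.017 with a minimum mean of 10 CPM, -0.26 scaled to miR-30e-5p and -0.077 to 1.09 leaving out 1 library. miR-335-3p in spheroid shRELB was 0.30 with limma, 0.018 with the block and -0.44 to 0.38 leaving out 1 library, and its shRELA difference was -0.029 with library totals and -0.22 to 0.77 leaving out 1 library. miR-335-5p was 0.093 in spheroid shRELB with limma, and 0.37 and 0.77 in shNeg and shRELB culture scaled to miR-30e-5p. miR-483-3p in adherent shRELA was -0.023 scaled to miR-30e-5p. Leaving out 1 library, the miR-483 ratio ran from -0.25 to 0.027 in adherent shRELA and from -0.52 to 0.13 in spheroid shRELB. The spheroid shNeg libraries were the shallowest, and miR-675 and miR-296, with at most 33 counts in any library, are limited by depth.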
